A study of Homo sapiens with 12 samples.

Results

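Silver ions were set against medium alone in Caco-2, a human colon tumour line in long use whose cells come to resemble small-intestinal absorptive cells once a confluent layer is left to mature. The comparison used 6 of the 12 arrays of the series, the 3 arrays labelled silver ions (AgNO3) at 0.5 µg/mL and the 3 labelled medium control, and covered all 19775 genes that had a probe set of their own. The arrays were chosen by their labels, and no measured value entered the choice. The labels leave unsaid whether the 0.5 µg/mL counts silver or silver nitrate. All groups shared the same culture: passage 22, 21 days after confluence in 75 cm2 flasks, grown in DMEM with serum at 10% (from fetal calves, heated to inactivate it) and antibiotics at 1%, then held for 24 h in 20 mL of DMEM holding penicillin and streptomycin at 1% and a supplement of insulin, transferrin and selenium at 1%. The controls therefore also received the selenium supplement. The other 6 arrays held cells given surfactant-coated silver nanoparticles (AgPURE), with 3 arrays for a dose of 2.5 µg/mL and another 3 for 25 µg/mL, and are used below only to place the ion values. Nothing in the labels states whether arrays within a group are separate cultures, so the p-values rest on array-to-array spread that may be technical only. The line is a tumour line of a single origin, and no group had nitrate without silver.

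Silver ions bind thiol and selenol groups of proteins. Metallothioneins are small cysteine-rich proteins that hold zinc, copper and other soft metals, and their genes are switched on by the zinc sensor MTF1, which binds short promoter letters called metal response elements when free zinc rises. Selenoproteins carry selenocysteine, placed at a UGA codon by a dedicated machinery that needs an RNA structure in the transcript. The mRNAs of some of them, among them GPX1, SELENOW and SELENOH, are known to be lost more readily than those of others when selenium is short. Whether selenium supply had any part in the values below was not tested.

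No gene passed the test. Of 19775 genes, 0 (0% of those tested) had an adjusted p under 0.05 for ions against medium (limma, Benjamini-Hochberg over all genes), and 1233 (6.24%) had an unadjusted p under 0.05, where 989 would have that value if every p were evenly spread. Of those 1233, 690 (3.49% of all genes) were higher with ions and 543 (2.75%) lower. These counts depended on single arrays and on scaling: without ion replicate 1 they were 393 and 325, the higher count ran from 200 with hybridization control scaling to 1052 without ion replicate 2, and the lower from 2 with poly-A control scaling to 758 without ion replicate 2. No gene was 2-fold higher or lower, no gene was 1.5-fold higher, and 4 (0.0202%) were at least 1.5-fold lower: SELENOW by 1.8-fold, NRTN by 1.69-fold, NRP2 by 1.51-fold and MT1X by 1.5-fold. On the log2 scale NRTN went from -0.755 to -0.42 without ion replicate 1, NRP2 from -0.59 to -0.12 over the mean of its probe sets, and MT1X from -0.59 to -0.40 without medium replicate 1, each then under 1.5-fold. A second probe set of MT1X was at -0.84. The 95% interval of the difference lay within 1.5-fold in either direction for 19116 genes (96.7%) and within 2-fold for 19762 (99.9%), leaving 13 genes (0.0657%) for which a 2-fold difference lay inside the interval. The 3 ion arrays lay wholly above the 3 medium arrays for 1052 genes (5.32%) and wholly below for 1014 (5.13%). The count of 0 became 1 or 2 in 4 other treatments of the data, and the genes that then passed were SELENOW and GPX1.

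**Figure D1:**
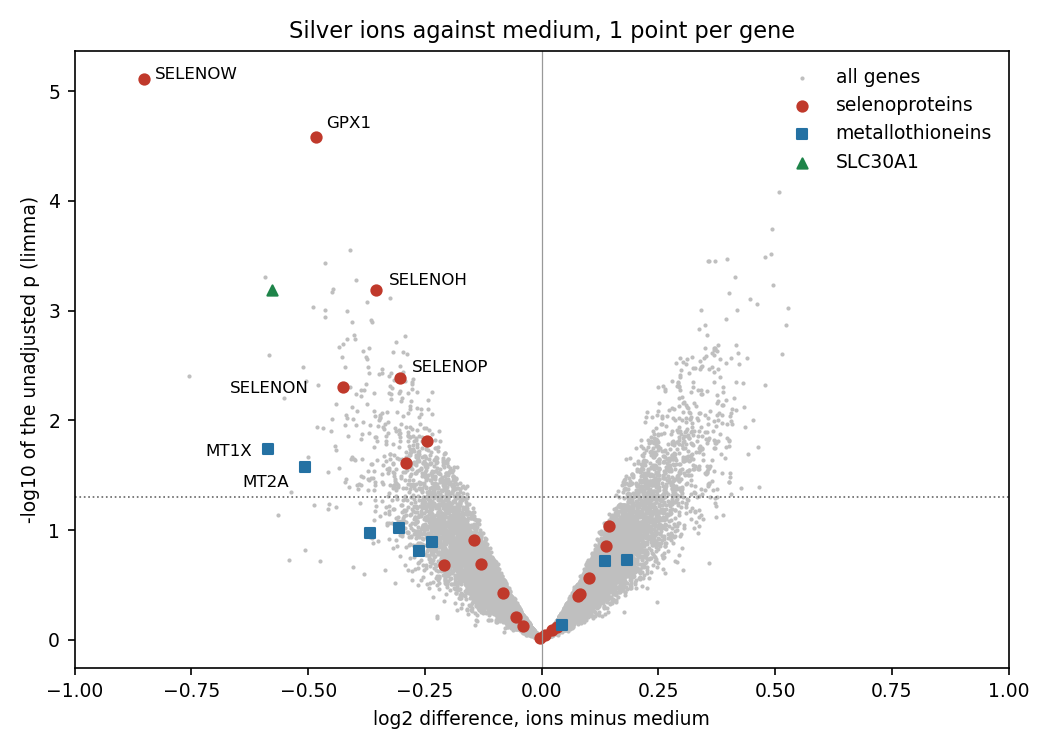
Each point is 1 of the 19775 genes, placed by its log2 difference, ions minus medium (horizontal), and by -log10 of its unadjusted p from limma (vertical), with 3 arrays per group; selenoproteins are circles, metallothioneins squares and SLC30A1 a triangle, and the dotted line marks an unadjusted p of 0.05. SELENOW, at -0.85, and GPX1, at -0.48, stand highest, and no gene passed after adjustment.

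The arrays of both groups were much alike. Over all genes the ion arrays correlated with each other at r of 0.9945 to 0.9973 and with the medium arrays at 0.9929 to 0.9975, across genes that are not independent replicates. Ion replicate 1 stood apart, with the narrowest spread of values (SD 2.1007) against 2.1386 to 2.1871 on the medium arrays. On it the 4943 dimmest genes lay 0.12 above the medium mean on the log2 scale at the median, and the 4944 genes of mean level 5.80 to 8.26 lay 0.10 below. Of the 690 genes higher at an unadjusted p under 0.05, 245 were among those 4943 dimmest genes and 53 among the 4944 brightest, against 89 and 134 of the 543 lower ones, and the part of replicate 1 in this was not tested. Hybridization control probe sets differed by -0.01 (exact permutation test, two-sided p = 1) and ribosomal RNA probe sets by -0.06 (exact p = 0.7), where 3 against 3 arrays can give no p below 0.1. Poly-A control probe sets differed by -0.18 (exact p = 0.5). Ion replicate 1 was the lowest of the 12 arrays for both the poly-A controls, at 4.95, and the hybridization controls, at 10.29. For poly-A, ion replicates 2 and 3 read 5.33 and 5.43, against 5.31 to 5.54 in medium. For hybridization they read 10.67 and 10.66, against 10.43 to 10.66 in medium. Of 18 measured markers of colonocytes and enterocytes, 14 lay above the median gene in medium, and their mean level ran from 8.56 to 8.59 on the medium arrays and from 8.43 to 8.61 on the ion arrays. VIL1, an actin bundler of the brush border, read 10.28, 10.45 and 10.40 in medium and 10.34, 10.37 and 10.40 with ions, while KRT20, a keratin of mature colonocytes, was dim at 4.65, 4.69 and 4.73 and at 4.22, 4.62 and 4.31. The mean of 9 leukocyte markers ran from 4.63 to 4.78 and from 4.66 to 4.72, and PTPRC, the pan-leukocyte surface phosphatase, was near the low end of the scale at 3.93 to 4.07 in medium. The mean of 10 fibroblast markers ran from 5.52 to 5.61 in medium and from 5.44 to 5.62 with ions, although the collagen gene COL1A1 was at 9.03, 9.13 and 9.45 in medium and 9.07, 9.32 and 9.40 with ions. In bulk RNA, fewer cells of a type and less RNA per cell cannot be told apart.

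The selenoproteins SELENOW and GPX1 held the smallest p-values of the comparison, at ranks 1 and 2. Other members ran down to rank 19159, for DIO2. Of the 25 human selenoprotein genes, 22 were measured (GPX6, TXNRD3 and SELENOV were not), and 7 of the 22 lay lower with ions at an unadjusted p under 0.05, 0 higher, against 2.75% lower and 3.49% higher among all genes. None of the 22 passed after adjustment. Their ion arrays lay wholly below the medium arrays for 6 genes and wholly above for 2, against 5.13% and 5.32% of all genes, and the median difference over the 22 was -0.07 on the log2 scale against 0.00 over all genes. This list was drawn up after the values of SELENOW, GPX1 and SELENOH had been seen, so its count is a description of these arrays. Without ion replicate 1 the count of 7 became 5, while the lower count over all genes went from 543 to 325. With scaling on the poly-A controls the 7 became 1, while 2 of all 19775 genes were still lower at that p.

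SELENOW, a small thiol-linked selenoprotein of the cytosol, had the smallest p of all genes. Its log2 values were 10.18, 10.30 and 10.38 in medium and 9.25, 9.54 and 9.52 with ions. Every ion array lay below every medium array, by more than the spread within either group. The difference was -0.85 ± 0.125 (SE, n = 3 arrays per group; 95% interval -1.12 to -0.58), a level 1.8-fold lower, with an adjusted p of 0.153 by limma. A second probe set of SELENOW differed by -0.86. Its adjusted p ran from 0.00291 with a variance trend on intensity to 0.998 without medium replicate 2, where the difference was still -0.84.

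GPX1, the cytosolic glutathione peroxidase that reduces hydrogen peroxide, came next. It read 10.35, 10.47 and 10.46 in medium and 9.92, 9.90 and 10.01 with ions, again with no overlap. The difference was -0.48 ± 0.08 (SE), with an adjusted p of 0.258 by limma. SELENOH, a nucleolar selenoprotein, read 11.72, 11.82 and 11.87 in medium and 11.34, 11.55 and 11.46 with ions, a difference of -0.35 ± 0.08 with an adjusted p of 0.651. It ranked 18 by p among all genes, and its 6 probe sets ran from -0.47 to -0.10.

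The other members with an unadjusted p under 0.05 were SELENOP, SELENON, TXNRD1 and GPX3. SELENOP, the secreted selenium carrier, read 11.14, 11.32 and 11.23 in medium and 10.77, 10.97 and 11.03 with ions. SELENON, a protein of the endoplasmic reticulum, read 6.25, 6.52 and 6.37 against 5.79, 5.90 and 6.18, and GPX3, the extracellular peroxidase, 8.95, 9.03 and 8.90 against 8.58, 8.76 and 8.67. For these 3 genes all ion arrays lay below all medium arrays, with differences of -0.30 ± 0.09, -0.43 ± 0.13 and -0.29 ± 0.12. Other probe sets of SELENOP differed by -0.29 and -0.10, and another of GPX3 by -0.30. TXNRD1, the cytosolic thioredoxin reductase and also a target of the stress regulator NRF2, read 10.71, 10.70 and 10.60 against 10.29, 10.37 and 10.60, so that ion replicate 3 met the medium range, and differed by -0.245 ± 0.09 (-0.06 over the mean of its probe sets). The second probe set of TXNRD1 was dim, at a mean level of 3.87. The adjusted p of SELENOP, SELENON, TXNRD1 and GPX3 ran from 0.721 to 0.782.

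The remaining 15 selenoproteins lay between -0.21 and 0.14, 8 of them positive. GPX4, the peroxidase that protects membrane lipids, read 11.76, 11.80 and 11.71 in medium and 11.75, 11.73 and 11.82 with ions, a difference of 0.01 with a 95% interval of -0.15 to 0.16. SEPHS2, which makes the selenium donor, and MSRB1, a methionine sulfoxide reductase, were the members whose ion arrays lay above all medium arrays, at 0.14 ± 0.08 and 0.14 ± 0.09. The liver-type deiodinase DIO1 differed by -0.21, the endoplasmic reticulum protein SELENOK by -0.14 and the mitochondrial thioredoxin reductase TXNRD2 by -0.05. Of 13 genes of the selenocysteine machinery 1 had an unadjusted p under 0.05, SECISBP2, which binds the RNA structure that recodes UGA, at -0.25 ± 0.09 (-0.13 over the mean of its probe sets), against 3.49% higher and 2.75% lower among all genes.

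**Figure D2:**
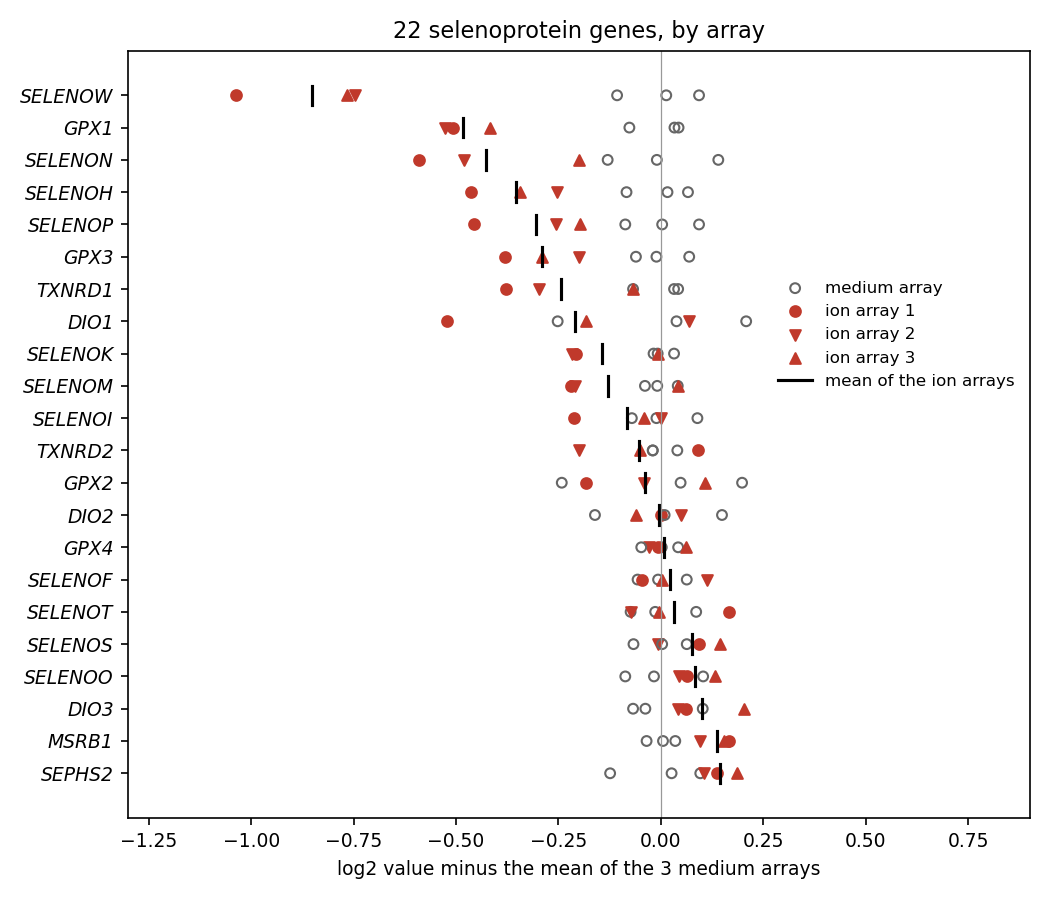
Log2 value of each medium array (open circles) and ion array (filled symbols, 1 per replicate) minus the mean of the 3 medium arrays, for the 22 measured selenoprotein genes, with a bar at the mean of the ion arrays. From SELENOW, at -0.85, to GPX3, at -0.29, the 6 lowest genes have every ion array below every medium array, and GPX4 lies at 0.01.

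The same medium arrays served the particle comparisons, so the following values are side by side and not independent. At 25 µg/mL 33.4% of all genes passed against medium, and at 2.5 µg/mL 0%. SELENOW differed from medium by -0.67 at 2.5 µg/mL (adjusted p = 0.342, limma) and fell by 0.51 at 25 µg/mL (adjusted p = 0.00506). GPX1 differed by -0.27 at 2.5 µg/mL and fell by 0.53 at 25 µg/mL (adjusted p = 0.000113), and SELENOH by -0.17 and by -0.35 (adjusted p = 0.00337). Set directly against the 25 µg/mL arrays, which shares no medium array, SELENOW differed by -0.34 (95% interval -0.61 to -0.07, adjusted p = 0.0517), GPX1 by 0.05 (-0.12 to 0.22) and SELENOH by 0.00 (-0.17 to 0.18), all without passing. Other selenoproteins did differ there: SELENOP was higher with ions by 1.24 (adjusted p = 1.61e-07) and GPX4 by 0.51 (adjusted p = 8.16e-05), and TXNRD1 was lower, with a difference of -2.07 (adjusted p = 1.38e-09). The doses differ in amount and form, so these are values side by side and not a potency.

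Metallothioneins and zinc transporters are the classic readouts of metal in a cell, and the promoters of 3 genes that the values turn on are shown first. Each sequence is the 250 bases before the RefSeq start in GRCh38.p14, written 5′ to 3′ on the strand of the gene, with matches to TGCACNC or TGCGCNC on either strand, the core letters of the metal response element, in capitals. SLC30A1 lies at chr1:211579162-211579411 on the minus strand, MT1X at chr16:56682220-56682469 and MT2A at chr16:56608334-56608583, both on the plus strand.
SLC30A1: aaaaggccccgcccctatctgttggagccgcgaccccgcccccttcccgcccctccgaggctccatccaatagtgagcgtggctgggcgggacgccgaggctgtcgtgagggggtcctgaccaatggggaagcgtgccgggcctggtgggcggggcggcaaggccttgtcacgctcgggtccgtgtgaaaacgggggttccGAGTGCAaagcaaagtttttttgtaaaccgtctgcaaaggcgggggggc
MT1X: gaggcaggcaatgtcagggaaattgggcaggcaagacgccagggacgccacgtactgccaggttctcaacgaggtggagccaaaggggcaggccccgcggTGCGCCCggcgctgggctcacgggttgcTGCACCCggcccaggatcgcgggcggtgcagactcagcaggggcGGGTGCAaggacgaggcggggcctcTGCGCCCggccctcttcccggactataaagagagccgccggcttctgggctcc
MT2A: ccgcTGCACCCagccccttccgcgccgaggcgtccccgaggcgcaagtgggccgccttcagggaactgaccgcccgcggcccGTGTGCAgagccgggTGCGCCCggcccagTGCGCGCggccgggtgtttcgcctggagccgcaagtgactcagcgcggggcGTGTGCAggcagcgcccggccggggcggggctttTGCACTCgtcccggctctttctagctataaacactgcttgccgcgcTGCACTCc
The letters occurred 1 time in SLC30A1, 4 times in MT1X and 7 times in MT2A, with no overlapping matches. Of the 27305 promoters listed in RefSeq's set, 24.7% held at least 1 match, and 4 of the 9 measured metallothioneins were in that set, all 4 with a match. A match is a description of the letters and not a measured site.

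None of the 9 measured metallothioneins passed the test, and none lay wholly outside the medium range. MT1X and MT2A, 2 of the 9, had an unadjusted p under 0.05 and lay lower, against 2.75% of all genes. That count of 2 became 0 without ion replicate 1 and 5 without medium replicate 3. 6 of the 9 were negative, between -0.59 and -0.24 on the log2 scale (MT1X, MT2A, MT1E, MT1H, MT1F and MT1G), and 3 were positive (MT4 by 0.18, MT1M by 0.14 and MT3 by 0.04). Those 3 were the dimmest in medium, at means of 5.38, 3.07 and 4.73, against 7.93 for MT1E, the dimmest of the 6. MT1X read 11.10, 10.57 and 10.52 in medium and 9.81, 9.94 and 10.67 with ions. MT2A, the most abundant form in many tissues, read 11.94, 11.36 and 11.22 in medium and 10.70, 10.84 and 11.45 with ions. In both genes medium replicate 1 was the highest array, ion replicates 1 and 2 were the lowest, and ion replicate 3 lay inside the medium range. The differences were -0.59 ± 0.22 for MT1X and -0.51 ± 0.205 for MT2A, each with an adjusted p of 0.782 by limma. A second probe set of MT1X differed by -0.84. Without medium replicate 1, MT2A differed by -0.29.

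The spread between arrays was shared by the 6 genes, whose mean was 9.96, 9.44 and 9.32 in medium and 8.92, 9.07 and 9.60 with ions. The median difference of the 9 genes was -0.26, against 0.00 over all genes, and was -0.56, -0.39 and -0.01 on ion replicates 1, 2 and 3. It became -0.10 without medium replicate 1, -0.12 without ion replicate 1 and -0.48 without ion replicate 3. Members of this family are near-identical in sequence, and a probe set for one can take up signal from another.

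SLC30A1 exports zinc across the plasma membrane. Its brightest probe set read 10.83, 10.57 and 10.70 in medium and 9.82, 10.24 and 10.30 with ions, wholly below, at -0.58 ± 0.13 with an adjusted p of 0.651 by limma. Its other probe sets differed by -0.10 (mean level 10.58) and 0.17 (dim, at 3.09), and the mean over them all by -0.17. The value thus depends on the probe set. SLC30A2, which moves zinc into vesicles, differed by -0.26, and the sensor MTF1 by 0.03. Of 14 zinc importers 1 had an unadjusted p under 0.05, SLC39A8, at -0.25 (0.04 over the mean of its probe sets, -0.135 without medium replicate 2). Of 15 copper genes 1 did, the mitochondrial copper chaperone SCO2 at -0.17, and of 14 iron genes 0 did. Among all genes the shares were 3.49% higher and 2.75% lower.

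Against the 25 µg/mL particle arrays the same genes differed widely. There 6378 of 19775 genes (32.3%) passed, 3676 higher with ions (18.6%) and 2702 lower (13.7%), a split that became 2541 and 4017 when each array was centred on its median. Of the 9 metallothioneins 8 passed, all lower with ions, and MT4 differed by -0.29 without passing (adjusted p = 0.11, limma). MT1X read 14.06, 14.12 and 14.10 at 25 µg/mL, so that ions lay lower by a difference of -3.955 ± 0.22, and MT2A differed by -3.46, MT1G by -4.58 and MT1M by -5.31. At 25 µg/mL MT2A read 14.47, 14.46 and 14.44, close to the highest mean of any gene, 14.57, and MT1M with ions read 3.28, 3.03 and 3.31, within the range of the 4943 dimmest genes (2.74 to 4.29). The values carry no saturation or detection call, so these differences are as deposited and may be too small at either end of the scale. SLC30A1 was lower by a difference of -1.24 (adjusted p = 6.62e-06, limma) and SLC30A2 by -2.31.

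**Figure D3:**
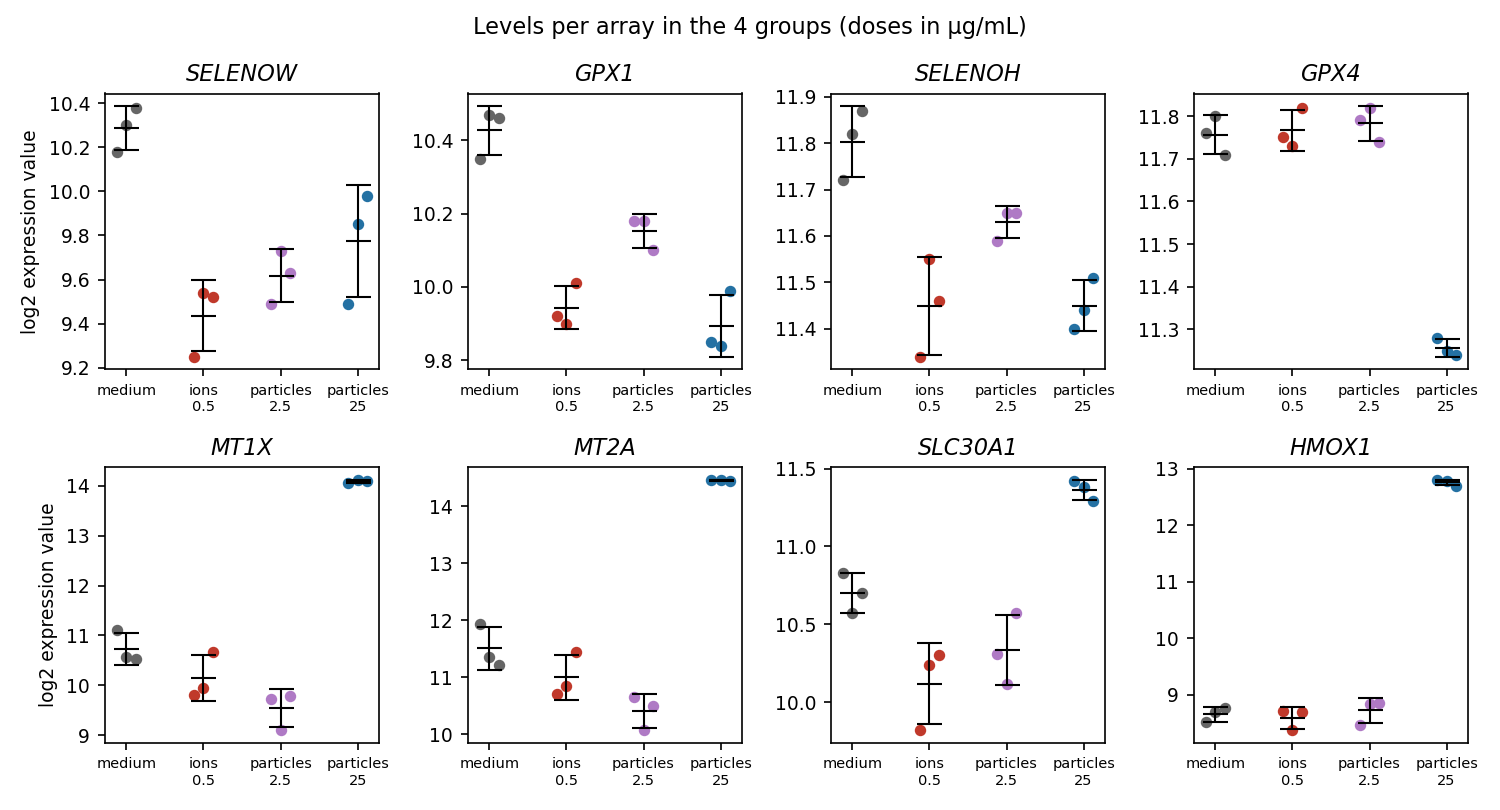
Log2 expression value on each array (points) in the 4 groups for 8 genes, with group means and SD as bars (3 arrays per group; each panel has its own vertical axis, which does not start at 0). MT1X with ions (9.81 to 10.67) overlaps medium or lies below it, while the 25 µg/mL arrays lie at 14.06 to 14.12.

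With ions, genes that mark oxidative and protein-damage stress differed little from medium in the probe sets used. HMOX1, the heme-degrading enzyme induced by oxidants and metals, read 8.51, 8.69 and 8.76 in medium and 8.71, 8.37 and 8.70 with ions, a difference of -0.06 with a 95% interval of -0.32 to 0.20. It read 12.79, 12.78 and 12.70 at 25 µg/mL, a difference of -4.16 for ions. The HMOX1 interval with medium lay within 1.5-fold in either direction, but it rests on array-to-array spread that may be technical only. With poly-A control scaling the HMOX1 difference from medium was 0.12. HSPA6, an inducible heat shock protein with little basal expression, varied from 4.70 to 6.06 on the ion arrays and from 4.89 to 5.65 in medium. Its difference was 0.03 ± 0.28, with a wide 95% interval of -0.57 to 0.64, and it stood at 12.19 to 12.33 at 25 µg/mL. The HSP70 co-chaperone DNAJB1 differed from medium by 0.07 and from 25 µg/mL by -3.02. The glutathione synthesis subunit GCLM differed by 0.10 and -2.17, the peroxiredoxin-repair enzyme SRXN1 by -0.065 and -2.65, and the neutrophil chemokine CXCL8 by 0.03 and -2.70. Other probe sets of GCLM differed from medium by -0.19 and -0.21.

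By group, NRF2 targets had 3 of 28 members with an unadjusted p under 0.05, all lower: glutathione reductase GSR at -0.28 ± 0.09, whose ion arrays (9.05, 9.32 and 9.29) lay below all medium arrays (9.54, 9.54 and 9.44), TXNRD1 as above, and EPHX1, an epoxide hydrolase. Another probe set of GSR differed by -0.25. Among all genes 2.75% lay lower and 3.49% higher. The heat shock list had 1 of 22 higher, HSPA1L at 0.26, and 1 lower, the co-chaperone DNAJB4 at -0.355. Without ion replicate 1 these were 0.14 and -0.19, and without medium replicate 2 HSPA1L was 0.15. The immediate early list had 1 of 18 higher, IER2 at 0.19 with all ion arrays above medium, and 1 lower, the transcription factor FOS at -0.36, which was -0.16 without ion replicate 1 and -0.215 without medium replicate 3. The integrated stress response and the unfolded protein response had 0 of 23 and 0 of 20. Against 25 µg/mL, 20 of 28 NRF2 targets, 18 of 22 heat shock genes and 17 of 18 immediate early genes passed as lower with ions. Among all genes 13.7% did.

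**Figure D4:**
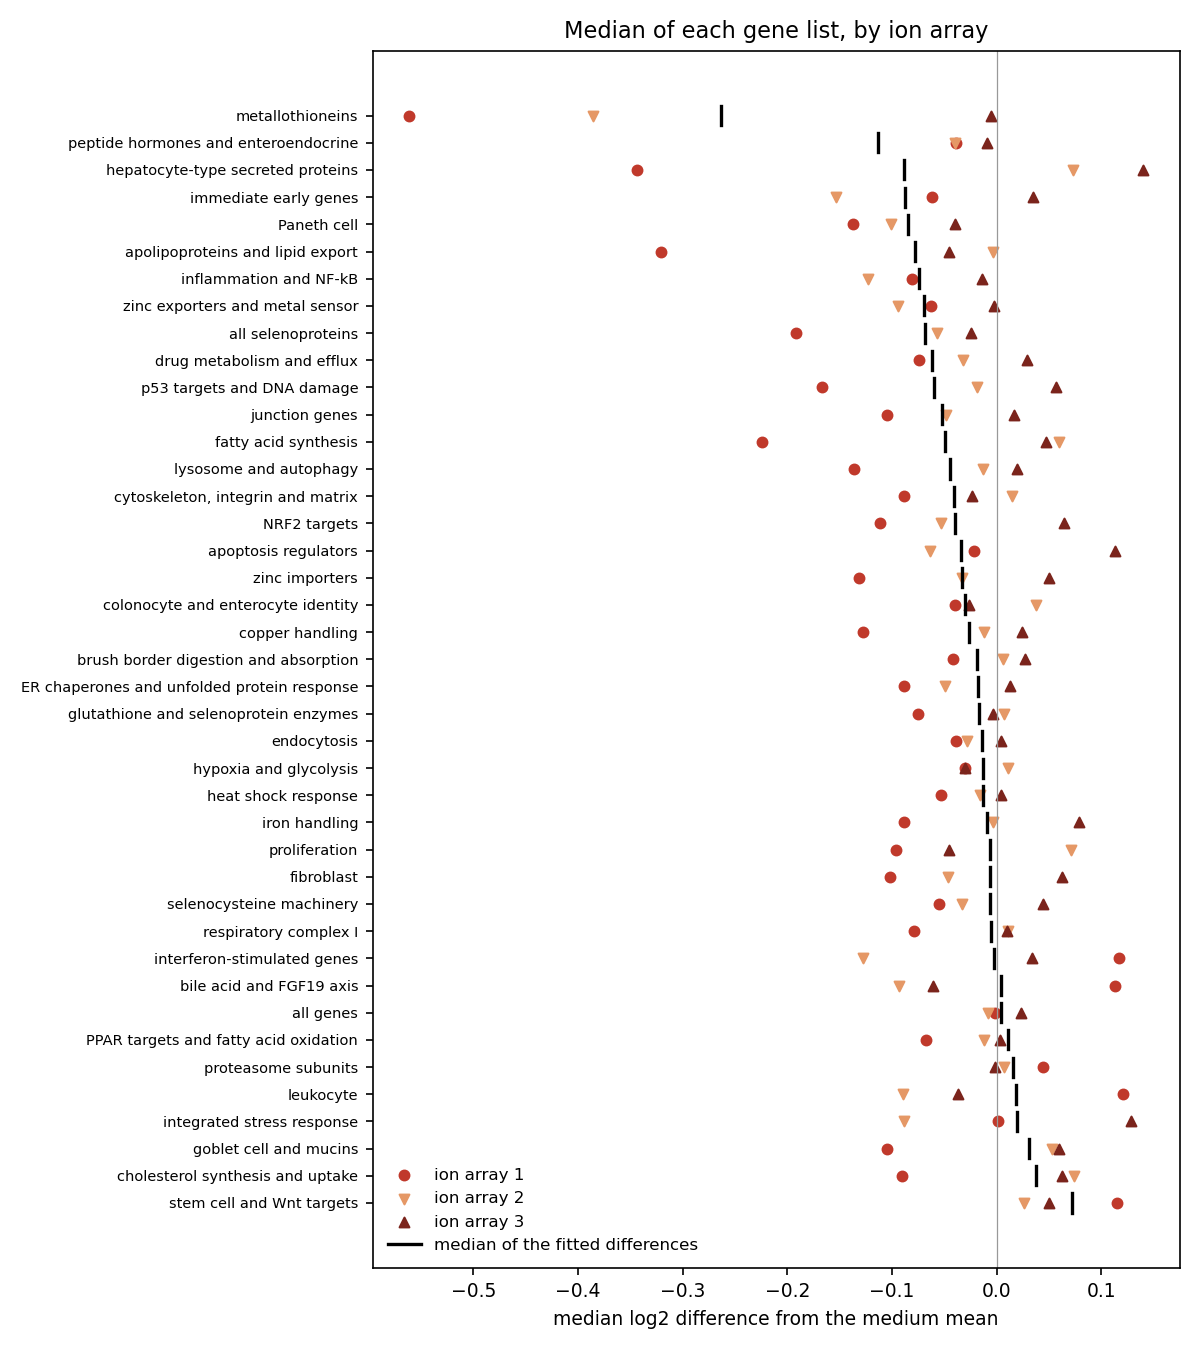
Median log2 difference from the medium mean over the members of each gene list, for each of the 3 ion arrays (symbols) and for the fitted differences (bars). The metallothionein bar, at -0.26, is the lowest, with its 3 arrays at -0.56, -0.39 and -0.01, and the bar for all genes is at 0.00.

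Of the 38 lists, 36 had a median within 0.1 of 0 on the log2 scale; the exceptions were the metallothioneins and the peptide hormone list at -0.11, in which NPPB, the natriuretic peptide gene, was at 0.465 (0.26 without medium replicate 3, 0.29 without ion replicate 1). Single arrays moved some of these medians. The hepatocyte-type list, at -0.09, was at -0.34, 0.07 and 0.14 on ion replicates 1, 2 and 3 and ran from -0.19 without medium replicate 1 to 0.11 without ion replicate 1. The apolipoprotein list, at -0.08, was at -0.32, 0.00 and -0.045 on the same arrays and at -0.17 without ion replicate 2. Over the 677 distinct genes of these lists, 15 (2.22%) lay higher and 30 (4.43%) lower at an unadjusted p under 0.05, against 3.49% and 2.75% of all genes, and none passed. These shares were not matched for level. Of the 4944 brightest of all genes 53 lay higher and 134 lower, and of the 4943 dimmest 245 and 89. Among genes of absorptive cells, the intestinal transcription factor CDX2 read 6.07, 6.27 and 5.79 in medium and 6.38, 6.39 and 6.59 with ions (0.41 ± 0.13), and the brush border alkaline phosphatase ALPI read 6.02, 6.04 and 5.77 against 5.17, 5.72 and 5.62 (-0.44 ± 0.14). Neither gene's arrays overlapped between groups, and the adjusted p was 0.749 and 0.782 by limma. The sodium-glucose transporter SLC5A1 was at 0.22. Over the mean of their probe sets CDX2 was at 0.22 and SLC5A1 at 0.14, and without ion replicate 1 ALPI was at -0.27. The other probe set of CDX2 was dim, at a mean level of 3.59. In lipid handling APOC2, the activator of lipoprotein lipase, was at 0.355, SREBF2, the master regulator of cholesterol genes, at 0.25, and the triglyceride enzyme DGAT1 at -0.26. Another probe set of APOC2 was at 0.30. SREBF2 was at 0.06 over the mean of its probe sets, and DGAT1 at -0.15 without ion replicate 1. The secreted angiotensin precursor AGT was at -0.365 (-0.22 without medium replicate 3) and KLB, the co-receptor for FGF19, at -0.43. Of the cell cycle genes cyclin D1, CCND1, was at 0.24 and the mitotic checkpoint kinase BUB1 at -0.26, and over the mean of their probe sets they were at 0.05 and -0.115. Without ion replicate 1 BUB1 was at -0.14. The collagen COL3A1 was at -0.54, set by ion replicate 1 at 5.90 beside 7.09 and 7.21 on the other two, and was at -0.12 without that array and at -0.10 over the mean of its probe sets.

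Several of the remaining lists had members with an unadjusted p under 0.05 that pointed both ways, and many of these values depended on the probe set. Among all genes 3.49% lay higher and 2.75% lower. Of 20 interferon-stimulated genes, 2 lay higher, the RNA sensor OAS2 at 0.38 and the antiviral RSAD2 at 0.25, both dim, and 2 lower, IFIT1 at -0.29 and the transcription factor IRF7. Over the mean of their probe sets OAS2 was at 0.12 and RSAD2 at 0.16, and without medium replicate 2 RSAD2 was at 0.15. Of 14 p53 and DNA damage genes, the death receptor FAS lay at 0.28 and the p53 target ZMAT3 at -0.27. Another probe set of FAS was at -0.22 and another of ZMAT3 at 0.28, and the means over probe sets were 0.015 and -0.02. Of 24 hypoxia and glycolysis genes, the oxygen sensor EGLN3 lay at 0.295 and the mitophagy receptor BNIP3 at -0.21. The other probe set of EGLN3 was at -0.27, and the means over probe sets were 0.01 for EGLN3 and -0.13 for BNIP3. Of 20 goblet cell genes, the transcription factor SPDEF lay at 0.29 (0.065 over the mean of its probe sets) and the membrane mucin MUC12 at -0.21. Other lists pointed 1 way. Higher were the proteasome subunit PSMB2 at 0.16 (1 of 25) and the mitochondrial dehydrogenase ACADL at 0.35 (1 of 18 fatty acid oxidation genes). Lower were the chemokine CCL2 at -0.235 (1 of 20 inflammation genes) and the glucuronosyltransferase UGT1A6 at -0.39 (1 of 22 drug metabolism genes). The caveolin CAV2 was at -0.24 (1 of 19 endocytosis genes). The plasma protein precursor AMBP, at -0.32, and AGT were the 2 lower of 15 hepatocyte-type genes. Over the mean of their probe sets ACADL was at 0.12, AMBP at -0.19 and CAV2 at -0.12. Without ion replicate 1 ACADL was at 0.16 and AMBP at -0.18, and without ion replicate 3 CAV2 was at -0.14. None passed after adjustment.

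The genes of smallest p outside these groups were mostly dim when higher. Of the 10 higher genes of smallest p whose arrays did not overlap, 8 lay below percentile 50 of mean level over all genes, against 3 of the 10 lower ones. The higher ones ran from 0.355 for APOC2 to 0.51, led by the histone gene H2AC15, which read 4.69, 4.59 and 4.49 in medium and 5.24, 4.92 and 5.13 with ions. The others were USP51, a deubiquitinase, at 0.49, the Rac regulator CHN1 at 0.49, the homeobox gene OTX1 at 0.48, the olfactory receptor OR14J1 at 0.40, the keratin-binding TCHP at 0.37, LOC101928940 at 0.36, the synaptic vesicle gene SYP at 0.41 and SPMIP9 at 0.50. TCHP was the brighter exception, with 7.41, 7.57 and 7.50 against 7.89, 7.88 and 7.83. The lower ones beside the selenoproteins and SLC30A1 were the semaphorin co-receptor NRP2, at 6.58, 6.66 and 6.50 against 6.01, 6.12 and 5.84 (-0.59 ± 0.13), the zinc finger genes ZNF138 at -0.41 and ZNF609 at -0.45, TMEM154 at -0.46, the helix-loop-helix inhibitor ID4 at -0.40 and C16orf74 at -0.45. Over the mean of their probe sets several were smaller: H2AC15 at 0.23, USP51 at 0.24, TCHP at 0.20, NRP2 at -0.12, ZNF138 at -0.16, ZNF609 at -0.27 and ID4 at -0.09. Some probe sets in these means were dim, such as the second ones of ZNF138 and H2AC15, at mean levels of 3.95 and 3.41. The 11 probe sets of NRP2 ran from -0.59 to 0.17. In the main fit the adjusted p ran from 0.552 to 0.651 for the higher genes and from 0.153 for SELENOW to 0.651 for the lower ones. NRTN, the neurotrophic ligand neurturin, is named because it lay 1.5-fold lower, at -0.755 ± 0.22 (-0.42 without ion replicate 1).

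Against the 25 µg/mL particles, the 5 genes farthest apart in each direction were of several kinds. The lower ones were HSPA6 at -6.895, MT1M, MT1G, MT1E at -4.57 and HSPA1L at -4.30. The higher ones were EPB41L3, a membrane skeleton protein, at 3.09, the apolipoprotein APOC3 at 2.91, the interferon-induced IFIT1 at 2.80, the acute-phase protein ORM1 at 2.71 and the peptide ligand APELA at 2.64. With ions these 5 lay between -0.29 and -0.10 of medium. Of 20 interferon-stimulated genes 14 passed as higher with ions than at 25 µg/mL and 0 as lower. For complex I of the respiratory chain it was 20 of 33 and 0, and for apolipoprotein and lipid export genes 11 of 18 and 0. Among all genes 18.6% passed as higher. Of 25 proteasome subunits 12 passed as lower and 0 as higher, and of 19 cytoskeleton, integrin and matrix genes 15 and 0. Among all genes 13.7% passed as lower. Against 2.5 µg/mL, 0 of 19775 genes (0%) passed by limma, and 1735 (8.77%) had an unadjusted p under 0.05. There MT1X with ions was higher by a difference of 0.60 that did not pass (adjusted p = 0.519), and SELENOW differed by -0.18. Against medium, MT1X differed by -1.19 at 2.5 µg/mL and by -0.59 with ions, neither passing.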

How the data were processed

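Per the labels' protocols, 250 ng of total RNA from each sample was labelled and hybridized to its own 3′ expression array. The deposited table gives log2 expression for every probe set. Per the submitters' processing notes the tools were Partek and RMA, with neither version nor settings, and the genome build is not given in the sources used here. Such normalization hides a change in total mRNA per cell, and no detection calls were used. Of 54675 probe sets, 62 were controls, 41091 had 1 gene symbol, 1801 several and 11721 none listed. Of a gene's 1-symbol probe sets, the one with the highest mean was used, taken over 12 arrays (10523 of 19775 genes had several). For 41037 of the 41091 probe sets the symbol was looked up through the gene ID, whether or not it changed, and 54 kept the listed symbol.

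One linear model of the 4 group means was fitted with limma 3.58.1 in R 4.3.3 (two-sided, degrees of freedom 8 residual and 6.25 prior, Benjamini-Hochberg over all genes, threshold 0.05). It was tested on simulated data. Array number limits the precision. No 2 arrays were identical. The members, the 38 lists and the rules were chosen with earlier results of these data known. The lists of all selenoproteins and of the selenocysteine machinery, and the naming of NRTN and of the selenoproteins outside the rule, followed after values of this comparison were seen. Named genes were up to 10 per direction passing the test without overlap between groups, filled up by smallest p, all metallothioneins, up to 2 members of each list by smallest p (given here where p was under 0.05), 11 stress and metal genes, and the 5 largest called differences per direction against particles. EPHX1 and IRF7 were named to complete a count. Lists received no test. Alternatives were other scalings, filters, probe set rules, variance models, thresholds and leaving out each array. Scaling on control probe sets was chosen after seeing the data. For plotting, matplotlib was used, version 3.10.9.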

Additional observations from a re-analysis of the deposited data

How the results depend on the processing

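The count of genes passing for ions against medium was 0 in the main fit and when any 1 array was left out. It was 1 when a gene's probe sets were averaged (SELENOW, adjusted p = 0.005), 2 with an intensity trend (SELENOW, 0.00291, and GPX1, 0.00544), 1 with every probe set tested (SELENOW) and 1 with hybridization control scaling (SELENOW, 0.0314), all by limma. The count against 2.5 µg/mL was 0 under every alternative run. Against 25 µg/mL, hybridization control scaling gave 14315 genes, 13817 higher and 498 lower, and poly-A control scaling 17509, 17368 higher and 141 lower. Leaving out 1 array gave 5411 to 6145 in all, 2928 to 3719 higher and 2307 to 2483 lower. Poly-A scaling moved the median of all genes for ions minus medium to 0.18.

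Of the 61 named genes with an unadjusted p under 0.05, the log2 difference shrank by over 1.5 times for 27 when probe sets were averaged, for 31 with poly-A scaling and for 11 without ion replicate 1. Averaging gave dim probe sets equal weight, as for TXNRD1, with mean levels of 11.01 and 3.87. Poly-A scaling moved every difference up by the same amount. Lower genes thus shrank and higher ones grew, as CCND1 did from 0.238 to 0.414. Some log2 differences, not only those near 0, changed sign (SLC39A8 was at -0.251 and SCO2 at -0.169 in the main fit). With quantile normalization these were CXCL8 (-0.016), HSPA6 (-0.009) and MT3 (-0.002). With the mean of probe sets they were DNAJB1 (-0.018), GCLM (-0.102) and SLC39A8 (0.042). With poly-A scaling they were APELA (0.011), APOC3 (0.055), EPB41L3 (0.08), HMOX1 (0.12), ORM1 (0.065), SCO2 (0.007), SRXN1 (0.11), SELENOK (0.032) and TXNRD2 (0.122). Leaving out medium replicate 1 turned MTF1 (-0.039) and SRXN1 (0.001), replicate 2 CXCL8 (-0.051), and replicate 3 APOC3 (0.075), HSPA6 (-0.18), MT3 (-0.041), ORM1 (0.083) and GPX4 (-0.016). Leaving out ion replicate 1 turned CXCL8 (-0.014) and MT3 (-0.026), replicate 2 HMOX1 (0.056), SRXN1 (0.022) and TXNRD2 (0.021), and replicate 3 CXCL8 (-0.054), EPB41L3 (0.115), HSPA6 (-0.319), MTF1 (-0.032) and GPX4 (-0.017). Over all arrays left out in turn, the differences ran from -0.287 to 0.075 for APOC3, -0.054 to 0.151 for CXCL8, -0.22 to 0.115 for EPB41L3, -0.127 to 0.056 for HMOX1, -0.319 to 0.362 for HSPA6, -0.039 to 0.093 for MTF1, -0.22 to 0.083 for ORM1, -0.017 to 0.03 for GPX4 and -0.126 to 0.021 for TXNRD2. The cause of these changes was not tested. No paired analysis was possible because the labels give each array its own letter and no number shared between groups. Dim genes have no stated background, so their values carry no lower limit.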
